A study of Mus musculus with 6 samples.

Results

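Cell cycle and DNA replication genes were followed as a set of 36 named genes in mouse liver, chosen by gene symbol from the 56674 rows of the count table. All 36 were found, and they comprise 20 genes of G1 and S phase (G1/S) and 16 genes of G2 and mitosis (G2/M). Liver poly(A) RNA was sequenced from male C57BL/6 mice, a common inbred strain, reared for 71 weeks and fed either polypropylene black microplastic in the chow (PB-MP, 3 libraries) or normal chow (control, 3 libraries). The labels give neither the dose of plastic nor which mouse each library came from, so p-values measure the spread between these libraries, which may be technical. The comparison asked whether prolonged dietary PB-MP alters hepatic gene expression.

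Adult hepatocytes are almost all quiescent and re-enter the cycle after injury or resection. D-type cyclins with CDK4 release E2F transcription factors from the retinoblastoma protein, and E2F then drives cyclin E, origin licensing factors and enzymes of nucleotide supply. Later in the cycle FOXM1 and MYB-containing complexes drive the mitotic genes, many through the promoter element called CHR (cell cycle genes homology region), and these genes are kept off in resting cells by the DREAM complex.

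The PB-MP libraries held 70603124 to 90483598 counted reads and the control libraries 68357478 to 112566641. Levels are given as reads and as CPM (read counts brought to a common library size with TMM scaling, which corrects for composition). A count of 0 allows up to 3 reads, or 0.0285 to 0.0495 CPM, for counting error only. The hepatocyte transcript Alb took 5.57% to 5.73% of reads in PB-MP and 4.18% to 5.40% in control. Mitochondrial transcripts took 9.24% to 11.3% of reads in PB-MP and 14.9% to 16.4% in control, without overlap. TMM factors also differed with diet, at 1.04 to 1.12 in PB-MP and 0.887 to 0.961 in control; the part of either in the results was not tested. With library size as the scaling, the median log2 fold change over all 17871 tested genes was 0.23 in place of 0.01.

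At this depth the mitotic genes had few reads. Of the 16 G2/M genes, 10 had fewer than 100 reads in every library, and none had 100 or more in all 6. The 20 G1/S genes ran up to 5007 reads, and 16 of them had at least 100 reads in every library. On a scale of CPM per kilobase of exon, which allows levels of different genes to be compared, the highest were Cdk4, the G1 cyclin-dependent kinase (12.1 in PB-MP and 13.8 in control), Pcna, the sliding clamp of DNA polymerases (8.53 in PB-MP and 7.47 in control), and Cks2, a small CDK-binding protein (7.94 in PB-MP and 6.44 in control). On the same scale the lowest levels were those of Bub1, a spindle checkpoint kinase (0.0047 in PB-MP and 0.030 in control), and Cdc6, a helicase loader (0.021 in PB-MP and 0.029 in control). Ccnb1, which encodes cyclin B1, stood at 0.034 in PB-MP and 0.107 in control.

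No member passed at an adjusted p below 0.05 in the edgeR quasi-likelihood test (0 of 35 tested, 0% of all 17871 tested genes). The smallest adjusted p of a member was 0.207, and limma-voom also called 0. DESeq2 called 1 member, Cdc20, which was lower in PB-MP, where it called 2.46% of all genes and 0.728% as lower. At an unadjusted edgeR p below 0.05 there were 6 members, all with lower levels in PB-MP, against 4.74% of all tested genes with lower and 7.35% with higher levels. Of the 6, 5 were G2/M genes. The number was 2 without PB-MP replicate 1, where 8.10% of all genes had such a p, against 12.1% with all libraries. The single direction depended on the scaling. With library size as the scaling, 7 members had an unadjusted p below 0.05, of which 4 had lower levels in PB-MP and 3 higher (Pcna, Ccne2 and Birc5), against 1.74% and 14.1% of all genes in those directions.

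Estimates for G2/M genes lay below 0 in 13 of 15 tested, where 49.4% of all tested genes did. Their median log2 fold change, PB-MP over control, was -1.12. Groups did not overlap for 14 of the 36 members, against 19.8% of all tested genes. The 3 PB-MP libraries lay below the 3 control libraries, with no overlap, for 9 of the 16 G2/M genes, where 8.49% of all tested genes did so. They lay above for 1 G2/M gene, Birc5, where 11.4% of all tested genes did. G1/S genes had a median of -0.34 with 15 of 20 estimates below 0, and the groups did not overlap for 4 of 20, each lower in PB-MP. With library size as the scaling, the medians were -0.89 for G2/M (13 of 15 below 0) and -0.12 for G1/S (12 of 20 below 0), beside the 0.23 of all genes. The separation of groups also depended on the scaling. With library size, 7 G2/M genes and 0 G1/S genes were lower in every PB-MP library, against 2.99% of all tested genes, and Birc5, Ccne2, Mcm7 and Pcna were higher in every one, against 20.9%. The 7 were Ccna2, Ccnb1, Ccnb2, Plk1, Bub1b, Cdc20 and Aurkb, so that the TMM separations of Cdk1, Top2a, Ccnd3, E2f1, Mcm6 and Rrm2 were not found. The difference between the G1/S and G2/M medians was not tested.

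**Figure D1:**
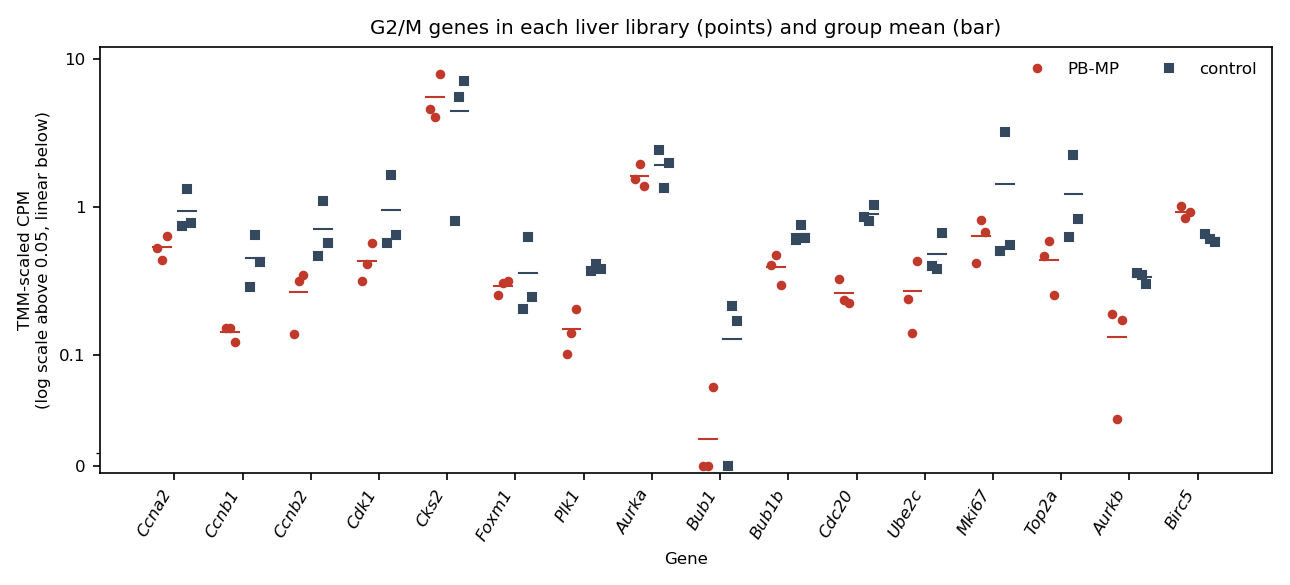
TMM-scaled CPM (vertical axis, log scale above 0.05 and linear below) of the 16 G2/M genes, with a point per library, PB-MP left of control, and a bar at each group mean. Cdc20, Ccnb1 and Plk1 show PB-MP libraries below all control libraries, Birc5 shows the opposite, and Mki67 has control replicate 2 far above the rest at 3.20 CPM.

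Promoter sequence differed between the G2/M and G1/S genes and was not used to group them; the shares are a description. RefSeq promoters on GRCm38.p6 (250 bases before to 50 after the start) were found for 13 G2/M and 15 G1/S members, and were searched on both strands for CHR (TTTGAA), the CCAAT box bound by NF-Y (CCAAT) and E2F sites (TTTCCCGC, TTTCGCGC, TTTGCCGC, TTTGGCGC). CHR letters were in 9 of 13 G2/M promoters and 1 of 15 G1/S promoters, against 20.2% of all 27025 genes in the table. CCAAT was in 12 of 13 and 9 of 15, against 41.1% of all genes. E2F letters were in 1 of 13 and 6 of 15, against 2.60% of all genes. Shown here, because they span the expression differences of the set, are Cdc20, Ccnb2 and Cdk1, which were lower in every PB-MP library under TMM, Birc5, which was higher, and the G1/S helicase gene Mcm6. Each line runs from 150 bases before to 20 after the start, 5′ to 3′ on the gene's strand, with matches to any of the motifs on either strand in capitals. The stretches are chr4:118437324-118437493, chr9:70421535-70421704, chr10:69352893-69353062 and chr1:128359686-128359855 on the minus strand and chr11:117849087-117849256 on the plus strand.
Cdc20: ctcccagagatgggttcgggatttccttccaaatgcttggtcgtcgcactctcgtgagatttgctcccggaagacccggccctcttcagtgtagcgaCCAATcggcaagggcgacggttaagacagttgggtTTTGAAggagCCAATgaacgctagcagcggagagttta
Ccnb2: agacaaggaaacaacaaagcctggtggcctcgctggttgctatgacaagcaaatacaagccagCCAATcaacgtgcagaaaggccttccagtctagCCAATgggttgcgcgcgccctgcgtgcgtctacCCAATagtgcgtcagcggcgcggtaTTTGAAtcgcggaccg
Cdk1: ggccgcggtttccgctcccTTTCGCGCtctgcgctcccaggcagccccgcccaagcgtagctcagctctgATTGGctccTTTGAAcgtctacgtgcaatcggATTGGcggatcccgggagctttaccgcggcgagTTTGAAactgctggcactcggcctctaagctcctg
Birc5: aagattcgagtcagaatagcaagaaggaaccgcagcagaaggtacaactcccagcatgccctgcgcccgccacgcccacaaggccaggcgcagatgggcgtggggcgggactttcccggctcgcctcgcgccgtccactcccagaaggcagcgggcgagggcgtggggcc
Mcm6: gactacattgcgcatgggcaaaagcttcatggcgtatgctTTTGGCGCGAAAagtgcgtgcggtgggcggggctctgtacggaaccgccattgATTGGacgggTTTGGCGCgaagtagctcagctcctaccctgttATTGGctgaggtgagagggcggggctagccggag
At 18 bases upstream of its start Cdc20 carries the CHR letters, with CCAAT at 53 and 8 bases upstream. At 71 and 15 bases upstream Cdk1 carries the CHR letters. Cdk1 alone among the G2/M promoters searched also holds an E2F match, 131 bases upstream. The Birc5 window holds none of these letters. Mcm6 holds E2F letters 110, 106 and 47 bases upstream, the first pair overlapping on opposite strands, and no CHR. Among the G2/M promoters not shown, Plk1, Bub1b and Top2a held CHR letters and were lower in every PB-MP library under TMM. Aurka, Ube2c and Mki67 held CHR letters too, and their groups overlapped. Ccnb1 held no CHR letters and was lower in every PB-MP library. Cks2 and Bub1 held no CHR letters, and their groups overlapped. A match is a description of the letters, and no binding was measured.

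Among spindle checkpoint and anaphase-promoting complex genes, Cdc20 differed most. Cdc20 activates the anaphase-promoting complex, the ubiquitin ligase that starts chromosome separation. It had 26, 20 and 22 reads in PB-MP replicates 1, 2 and 3, against 62, 49 and 108 reads in control replicates 1, 2 and 3. Every PB-MP library was below every control library, at 0.264 ± 0.0572 CPM in PB-MP and 0.895 ± 0.116 CPM in control (SD, n = 3 each). The log2 fold change was -1.76 ± 0.32 (SE; edgeR adjusted p = 0.207; DESeq2 adjusted p = 0.00996), and it ran from -1.95 to -1.66 with each library left out in turn. Bub1b, which encodes the checkpoint protein BUBR1, had 32, 40 and 29 reads in PB-MP against 44, 46 and 65 in control, again without overlap in CPM (log2 fold change -0.75 ± 0.33, edgeR adjusted p = 0.422). Ube2c, the E2 enzyme of the same ligase, had 19, 12 and 42 reads in PB-MP against 29, 23 and 70 in control, and the groups overlapped. Bub1 was not tested, because it had too few reads, with 0, 0 and 6 in PB-MP against 0, 13 and 18 in control.

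Among mitotic cyclins and kinases, Ccnb1 and Plk1 were the clearest. Cyclin B1 is the partner with which CDK1 drives entry into mitosis. Ccnb1 had 12, 13 and 12 reads in PB-MP against 21, 39 and 45 in control, or 0.143 ± 0.0172 CPM in PB-MP and 0.453 ± 0.179 CPM in control (SD, n = 3 each). The PB-MP libraries were nearly equal, the control libraries were spread, and the groups did not overlap (log2 fold change -1.65 ± 0.45, edgeR adjusted p = 0.257). Plk1, a kinase needed for spindle assembly, had 8, 12 and 20 reads in PB-MP against 27, 25 and 40 in control. Its control libraries agreed closely in CPM (0.388 ± 0.0220) and all stood above PB-MP (0.149 ± 0.0523, SD, n = 3 each; log2 fold change -1.36 ± 0.43, edgeR adjusted p = 0.316).

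Cdk1, the mitotic kinase itself, had 25, 35 and 56 reads in PB-MP against 42, 100 and 68 in control. The groups did not overlap in CPM, though PB-MP replicate 3 (0.574) and control replicate 1 (0.576) were nearly equal, and the log2 fold change of -1.12 ± 0.50 (edgeR adjusted p = 0.427) was -0.51 without control replicate 2. Ccnb2, which encodes cyclin B2, had 11, 27 and 34 reads in PB-MP against 34, 67 and 60 in control (log2 fold change -1.39 ± 0.51, edgeR adjusted p = 0.356). The row of its processed copy Ccnb2-ps held 36, 54 and 128 reads in PB-MP against 23, 34 and 73 in control. Reads may be split between the rows, and the sum of both overlapped between groups, at 0.596, 0.957 and 1.66 CPM in PB-MP against 0.782, 1.67 and 1.26 CPM in control. Ccna2, which encodes the S and G2 cyclin A2, had 42, 37 and 62 reads in PB-MP against 54, 80 and 82 in control, without overlap in CPM.

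The remaining members of this group did not separate. Foxm1, the transcription factor of mitotic genes, had 20, 26 and 31 reads in PB-MP against 15, 38 and 26 in control. Aurka, a centrosome kinase, had 122, 165 and 135 reads in PB-MP against 176, 81 and 208 in control, and it was the G2/M gene whose 95% interval lay within -1 to 1 on the log2 scale (-0.94 to 0.48). Cks2 had 359, 340 and 772 reads in PB-MP against 59, 335 and 740 in control, so that control replicate 1 stood apart from the other 5 libraries. Cks2 made up 37.0% to 54.4% of all G2/M reads in PB-MP and 8.19% to 41.9% in control. All 16 G2/M genes summed to 10.7, 10.9 and 14.6 CPM in PB-MP against 9.88, 21.2 and 16.8 CPM in control, with overlap. Without Cks2, they summed to 6.11, 6.86 and 6.64 CPM in PB-MP against 9.07, 15.6 and 9.78 CPM in control. Cks2 was left out after its values were seen, so the order of these sums is only a description.

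Among the chromosome-associated genes, the estimates of Mki67 and Top2a depended on control replicate 2. Mki67, the proliferation marker Ki-67 that coats mitotic chromosomes, had 33, 69 and 66 reads in PB-MP against 37, 194 and 58 in control. Control replicate 2 was far above the rest, the groups overlapped, and the log2 fold change of -1.14 ± 0.75 (edgeR adjusted p = 0.580) became 0.24 without that library. Top2a, the topoisomerase that untangles replicated DNA, had 37, 50 and 25 reads in PB-MP against 46, 135 and 87 in control. Here the groups did not overlap in CPM (log2 fold change -1.48 ± 0.57, edgeR adjusted p = 0.376), and the estimate was -0.77 without control replicate 2. Aurkb, the kinase of the chromosomal passenger complex, had 15, 3 and 17 reads in PB-MP against 26, 21 and 32 in control, also without overlap in CPM.

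Birc5, which encodes survivin, another subunit of the passenger complex, went the other way from Aurkb. It had 80, 71 and 90 reads in PB-MP against 48, 37 and 61 in control, or 0.926 ± 0.0875 CPM in PB-MP and 0.616 ± 0.0396 CPM in control (SD, n = 3 each). Every PB-MP library was above every control library (log2 fold change 0.59 ± 0.26, edgeR adjusted p = 0.429), and the estimate ran from 0.52 to 0.65 with each library left out in turn.

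Control replicate 2 was the highest of the 6 libraries for 10 of the 16 G2/M genes. It also had the fewest reads (68357478) and the lowest TMM factor (0.887). Its share of reads in the 18S ribosomal RNA row Rn18s-rs5 was the largest, at 11.2%. That share was 9.42% in PB-MP replicate 2 and 0.707% to 3.61% in the remaining libraries. The part of these in the G2/M values was not tested. Median CPM over the 16 genes was 0.323, 0.366 and 0.333 in PB-MP replicates 1, 2 and 3, against 0.542, 0.784 and 0.599 in control replicates 1, 2 and 3. Without control replicate 2, 11 of 15 tested G2/M estimates lay below 0 and their median was -0.67, and 3 of them had an unadjusted edgeR p below 0.05 in place of 5, while 17.8% of all genes had such a p in place of 12.1%. Without PB-MP replicate 1, 2 of them had such a p and the median was -0.93.

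**Figure D2:**
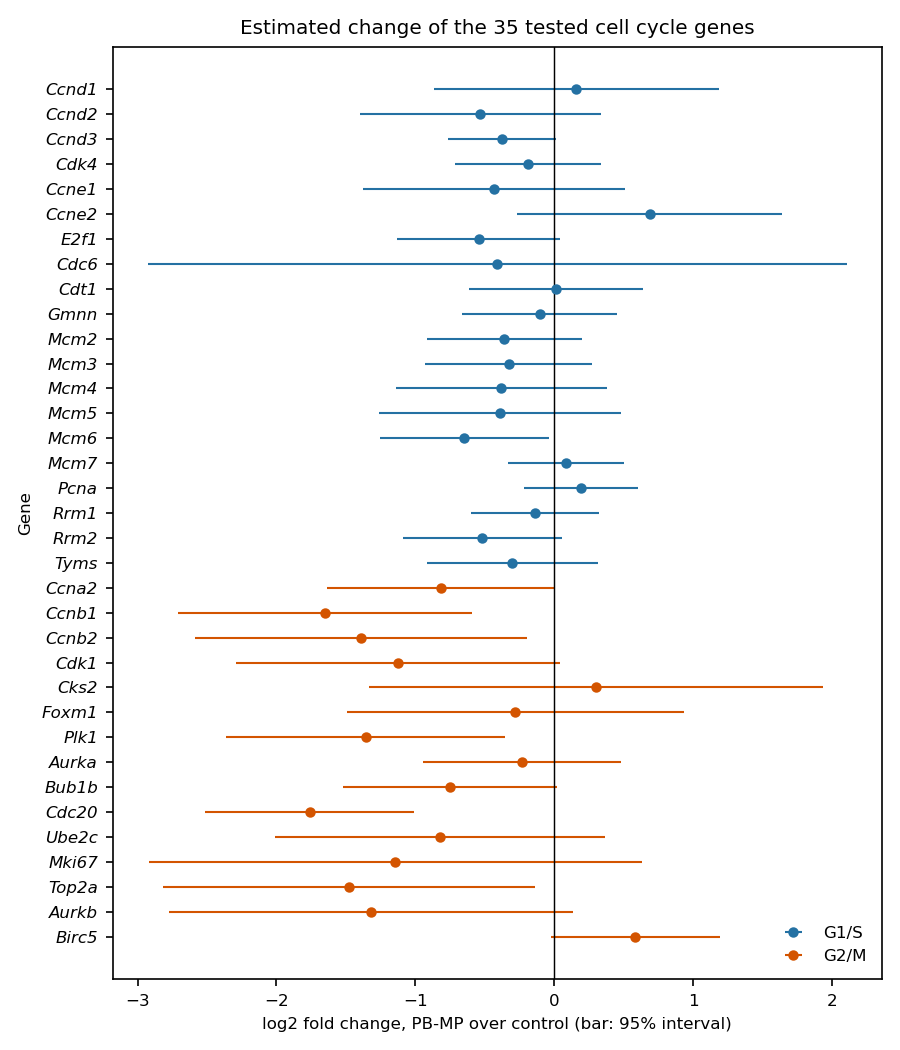
Estimated log2 fold change, PB-MP over control (horizontal axis), with its 95% interval (bar) for each of the 35 tested genes (vertical axis), coloured by phase. Most G2/M estimates lie between -0.75 and -1.76 with wide intervals, while G1/S estimates lie nearer 0, between -0.65 and 0.69.

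The 20 G1/S genes summed to 149.8, 146 and 158 CPM in PB-MP against 175, 163 and 174 CPM in control, without overlap under TMM. With library size as the scaling the sums were 167, 152 and 170.0 CPM in PB-MP against 169, 145 and 163 CPM in control, and the groups overlapped. Among the G1 cyclins, the D cyclins had estimates of either sign. Ccnd1, the D cyclin most induced when hepatocytes re-enter the cycle, had 16.9, 6.60 and 5.79 CPM in PB-MP against 6.53, 10.2 and 9.46 CPM in control. PB-MP replicate 1 was above all other libraries and the other two PB-MP libraries were at or near the lowest, so the log2 fold change of 0.16 ± 0.44 (edgeR adjusted p = 0.912) took either sign, -0.50 without PB-MP replicate 1 and 0.42 without PB-MP replicate 3. Ccnd3 had 29.3, 36.3 and 30.3 CPM in PB-MP against 45.8, 36.5 and 41.8 CPM in control. The groups did not overlap, with PB-MP replicate 2 and control replicate 2 nearly equal (log2 fold change -0.37 ± 0.17, edgeR adjusted p = 0.429). Ccnd2 had 3.53 ± 1.26 CPM in PB-MP and 5.11 ± 1.68 CPM in control, and Cdk4 had 39.3 ± 10.5 CPM in PB-MP and 44.8 ± 5.99 CPM in control (SD, n = 3 each), with overlap for both genes. The log2 fold change of Ccnd2 was -0.53 ± 0.37 (edgeR adjusted p = 0.599).

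E2f1, which activates the S-phase genes, had 2.55, 4.09 and 3.79 CPM in PB-MP against 4.91, 4.77 and 5.53 CPM in control. The groups did not overlap (log2 fold change -0.54 ± 0.25, edgeR adjusted p = 0.436). The E-type cyclins, which carry cells into S phase with CDK2, had estimates of opposite sign. Ccne2 had 110, 83 and 111 reads in PB-MP against 29, 67 and 72 in control (log2 fold change 0.69 ± 0.41, edgeR adjusted p = 0.535), and Ccne1 had 30, 27 and 48 reads in PB-MP against 31, 24 and 82 in control. Both overlapped between groups in CPM.

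**Figure D3:**
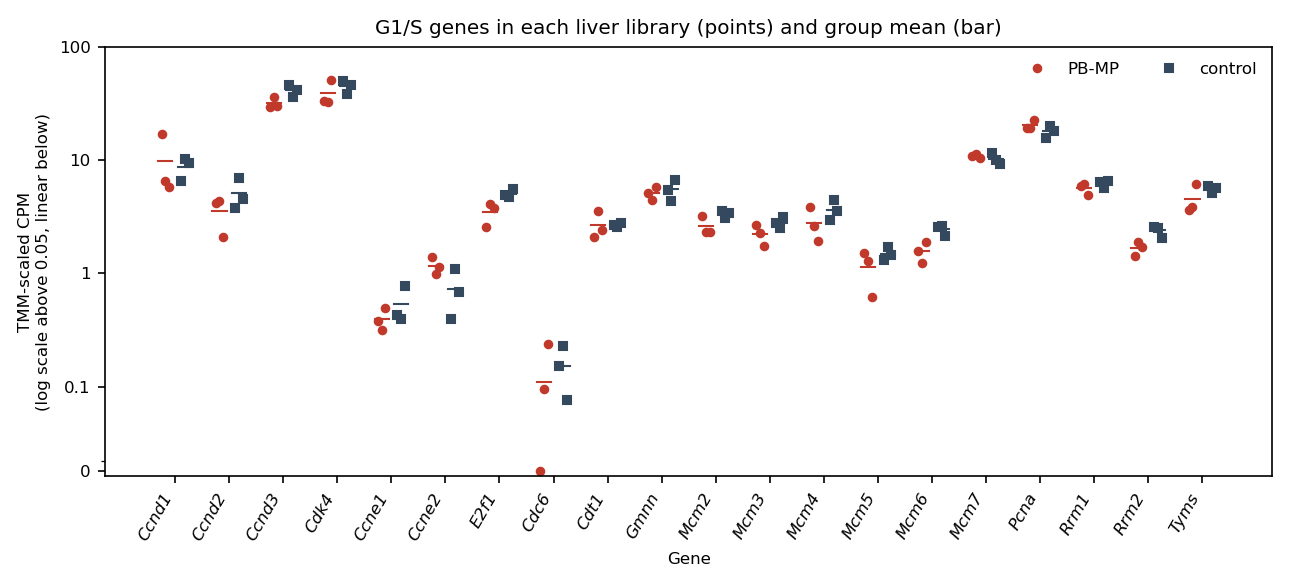
TMM-scaled CPM (vertical axis, log scale above 0.05 and linear below) of the 20 G1/S genes, with a point per library, PB-MP left of control, and a bar at each group mean. For most genes the groups sit at similar heights; E2f1, Mcm6, Rrm2 and Ccnd3 have PB-MP libraries below all control libraries under TMM, and overlap with library size as the scaling.

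Of the origin licensing genes, Mcm6 was the G1/S member with an unadjusted edgeR p below 0.05. It encodes a subunit of the 6-part MCM helicase that is loaded on origins in G1. Mcm6 had 1.58, 1.23 and 1.88 CPM in PB-MP against 2.58, 2.64 and 2.14 CPM in control, and the highest PB-MP library stayed under the lowest control library (log2 fold change -0.65 ± 0.26, edgeR adjusted p = 0.389). The other helicase subunits overlapped between groups. Mcm2 had 2.62 ± 0.508 CPM in PB-MP and 3.36 ± 0.263 CPM in control (SD, n = 3 each). Its log2 fold change was -0.36 ± 0.24 (edgeR adjusted p = 0.580). Log2 fold changes of Mcm3, Mcm4 and Mcm5 ran from -0.39 to -0.33, and that of Mcm7 was 0.08 ± 0.18.

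The factors that load the helicase overlapped between groups. Cdt1 had 2.70 ± 0.751 CPM in PB-MP and 2.68 ± 0.119 CPM in control, and its inhibitor geminin (Gmnn) had 5.13 ± 0.678 CPM in PB-MP and 5.52 ± 1.16 CPM in control (SD, n = 3 each). Cdc6 stood at 0, 8 and 23 reads in PB-MP against 11, 14 and 8 reads in control, too few to bound a change, with a 95% interval of -2.93 to 2.11. For Cdt1 the interval was -0.61 to 0.64 and for Gmnn -0.66 to 0.45.

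In the group of replication clamp and nucleotide supply, Rrm2 and Pcna had estimates of opposite sign. Rrm2, the cell-cycle-regulated subunit of ribonucleotide reductase, had 1.42, 1.90 and 1.70 CPM in PB-MP against 2.59, 2.54 and 2.06 CPM in control. The groups did not overlap (log2 fold change -0.52 ± 0.24, edgeR adjusted p = 0.447). Its partner subunit Rrm1 had a log2 fold change of -0.14 ± 0.20, with overlap. Pcna had 20.5 ± 1.87 CPM in PB-MP and 17.9 ± 2.07 CPM in control (SD, n = 3 each; log2 fold change 0.19 ± 0.17, edgeR adjusted p = 0.698). Tyms, thymidylate synthase, had 3.61, 3.84 and 6.12 CPM in PB-MP against 5.89, 5.12 and 5.72 CPM in control, where PB-MP replicate 3 was the highest of all libraries. The log2 fold change of Tyms was -0.30 ± 0.26 (edgeR adjusted p = 0.683).

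Precision differed between the phases. Intervals (95%) that stayed between -1 and 1 were found for 10 of 20 G1/S genes and 1 of 15 G2/M genes, against 45.7% of all tested genes. The median half-width was 0.60 for G1/S genes and 1.17 for G2/M genes. Some members also share exon bases with a gene on the opposite strand in GENCODE, and no label says whether counting used strand. The shared part was 23.4% of Ccnd1 (with LTO1), 22.8% of Ube2c (with Tnnc2) and 19.7% of Cdk4 (with Tspan31). It was 17.4% of Ccne2 (with Ints8) and 12.5% of Ccna2 (with Exosc9). Smaller parts were shared by other members, among them Plk1 (7.09%, with Gm44985) and Cdc20 (2.84%, with Elovl1). The share of exon bases does not bound the share of reads, so the values of all these genes are uncertain.

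Other genes of the pathway, in 8 lists of 135 genes, gave 0 calls at an adjusted p below 0.05 in edgeR over 125 tested genes, 12 at an unadjusted p below 0.05 (5 higher, 7 lower) and 2 in DESeq2, where 12.1% of all tested genes had such a p. Their median log2 fold change was -0.09. The list nearest to the G2/M genes in function, kinetochore, spindle and cytokinesis, had a median of -0.45 over 22 tested genes, 18 of them below 0, and the groups did not overlap for 7, each lower in PB-MP, against 8.49% of all tested genes in that direction. Racgap1, a regulator of the contractile ring, had 32, 20 and 14 reads in PB-MP against 44, 57 and 87 in control (log2 fold change -1.60 ± 0.45, edgeR adjusted p = 0.274). Spc24, a kinetochore subunit, had 570, 538 and 902 reads in PB-MP against 963, 587 and 1565 in control (log2 fold change -0.73 ± 0.24, edgeR adjusted p = 0.333). For both genes every PB-MP library was below every control library in CPM.

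**Figure D4:**
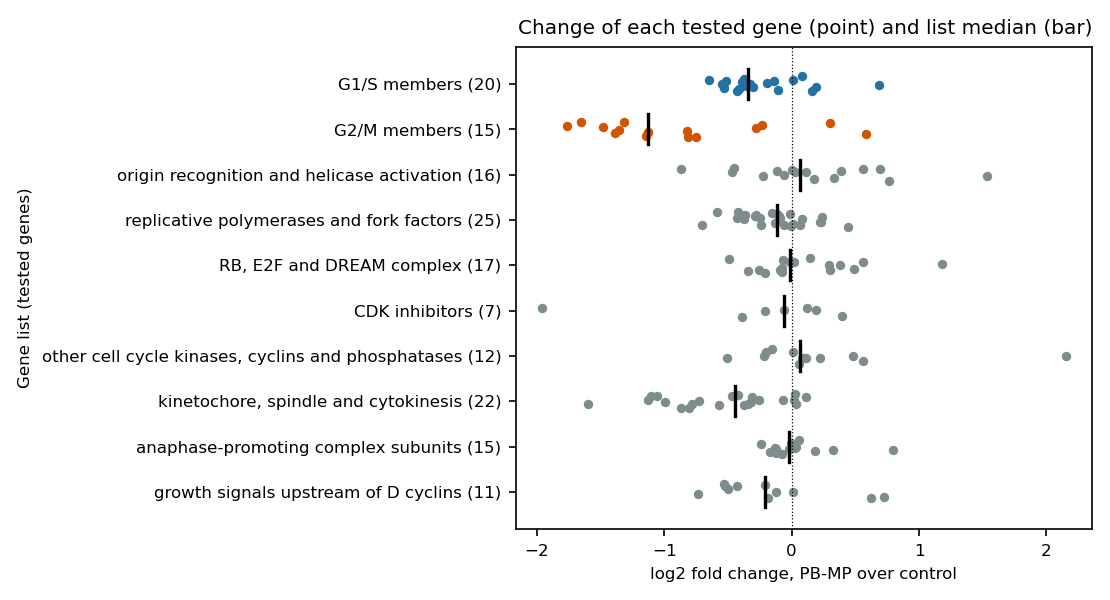
Log2 fold change, PB-MP over control (horizontal axis), of every tested gene (points) in the G1/S and G2/M sets and in 8 further pathway lists (vertical axis, number of tested genes in brackets), with a bar at each median. The G2/M median is at -1.12, the kinetochore, spindle and cytokinesis median at -0.45, and the other further lists lie between -0.21 and 0.07.

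Genes of origin recognition and helicase activation had a median of 0.07 over 16 tested. Recql4, a helicase of replication initiation, had 190, 136 and 154 reads in PB-MP against 44, 30 and 86 in control (log2 fold change 1.54 ± 0.32, edgeR adjusted p = 0.207; DESeq2 adjusted p = 0.00960), without overlap. Timeless, a fork protection factor, was at 0.69 ± 0.22, also without overlap. Polymerases and fork factors had a median of -0.12 over 25, with the flap endonuclease Fen1 at -0.59 ± 0.23 and thymidine kinase Tk1 at 0.44 ± 0.20. RB, E2F and DREAM genes had a median of -0.01 over 17. The repressor E2f8 was at 0.56 ± 0.22, and Mybl2, the MYB factor of mitotic genes, had 31, 49 and 48 reads in PB-MP against 16, 15 and 19 in control (1.18 ± 0.37, edgeR adjusted p = 0.310). Every PB-MP library was above every control library for Mybl2, the opposite order to most G2/M genes.

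CDK inhibitors had a median of -0.06 over 7. Cdkn1a, the inhibitor induced by p53, had 610, 426 and 446 reads in PB-MP against 3640, 401 and 1146 in control, so that its log2 fold change of -1.96 ± 0.74 (edgeR adjusted p = 0.367) came with overlap and with control replicate 1 far above the rest. Cdkn2d was at -0.39 ± 0.26. Other kinases, cyclins and phosphatases had a median of 0.07 over 12, with Cdk2 at 0.48 ± 0.21 and Cks1b at -0.51 ± 0.23. Subunits of the anaphase-promoting complex, which Cdc20 activates, had a median of -0.02 over 15, with Anapc15 at 0.79 ± 0.30 and Anapc13 at -0.24 ± 0.15. Growth signals upstream of the D cyclins had a median of -0.21 over 11. The EGF receptor ligand Tgfa had 1061, 1266 and 1061 reads in PB-MP against 1582, 1360 and 2248 in control (log2 fold change -0.74 ± 0.18, edgeR adjusted p = 0.241; DESeq2 adjusted p = 0.0487), without overlap, and Jun was at -0.53 ± 0.25.

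Under TMM, summed markers of lymphoid cells were lower in the same PB-MP libraries as most G2/M genes. In bulk tissue, fewer cells of a type and less RNA per cell cannot be told apart. The 6 B and plasma cell markers summed to 12.3, 14.0 and 10.9 CPM in PB-MP against 40.1, 58.1 and 18.6 CPM in control, with 5 of 6 estimates below 0, and none of the markers was at 0. The groups separated for 1 of the 6, Jchain, the joining chain of secreted antibodies, at 6.87, 8.0 and 1.48 CPM in PB-MP against 28.0, 40.1 and 12.6 CPM in control. Without Jchain the sums overlapped, at 5.40, 6.04 and 9.40 CPM in PB-MP against 12.1, 18.0 and 6.06 CPM in control. The 7 T and NK cell markers summed to 3.41, 4.42 and 4.17 CPM in PB-MP against 5.09, 6.93 and 4.92 CPM in control. Of the 7 estimates, 6 lay below 0. The groups separated for Cd3e and Trac, which were lower in PB-MP. They also separated for Klrb1c, which was higher (log2 fold change 0.65 ± 0.37, edgeR adjusted p = 0.512), and overlapped for the rest. Beside both lymphoid lists, the groups separated as lower in PB-MP for 8.49% of all tested genes and as higher for 11.4%. With library size as the scaling the T and NK sums overlapped. PB-MP replicate 2 had 374 such reads of 81174742, a slightly larger share than the 517 of 112566641 in control replicate 3. Control replicate 2, the highest library for most G2/M genes, was also the highest for both marker sums. Their part in the G2/M values was not tested.

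**Figure D5:**
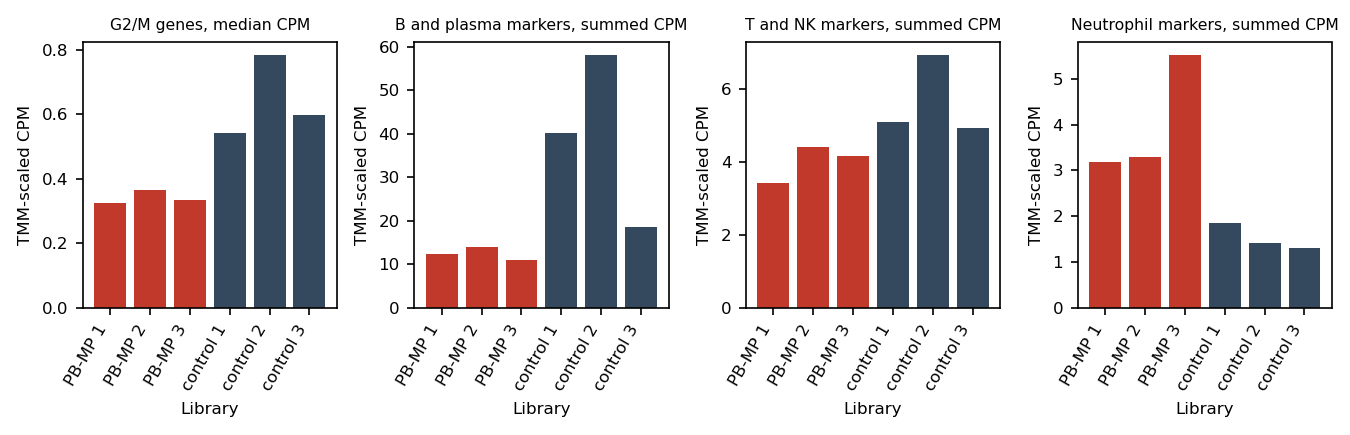
TMM-scaled CPM by library (bars, PB-MP replicates left of control replicates) of the median of the 16 G2/M genes and of the summed markers of B and plasma cells, T and NK cells and neutrophils. Under TMM the G2/M median and both lymphoid sums are higher in every control library and peak in control replicate 2. The neutrophil sum is higher in every PB-MP library.

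Other cell types gave a mixed picture beside these genes. The 6 neutrophil markers summed to 3.18, 3.29 and 5.52 CPM in PB-MP against 1.85, 1.42 and 1.30 CPM in control. The groups separated for 4 of the 6, each higher in PB-MP, against 11.4% of all tested genes in that direction. Cxcr2 overlapped (log2 fold change -0.29 ± 0.80), and Ly6g was listed at 0 reads throughout. The 5 adipocyte markers summed to 0.662 to 1.44 CPM in PB-MP and 2.38 to 12.3 CPM in control, mostly from Cfd, with Lep at 0 reads. DESeq2 called 5 of the 66 markers of all lists, against 2.46% of all genes, and edgeR called 0. Beside Marco and Col1a1, given below, these were Cfd, Jchain and S100a9. DESeq2 adjusted p was 3.15e-05 for Cfd and 0.00487 for Jchain, both lower in PB-MP, and 0.0209 for S100a9, higher in PB-MP. In edgeR the adjusted p was 0.207 for Cfd, 0.291 for Jchain and 0.239 for S100a9. Sums overlapped between groups for 7 hepatocyte, 7 Kupffer cell, 7 sinusoidal endothelial, 7 stellate, 6 cholangiocyte and 8 erythroid markers. Within these lists, all 7 Kupffer cell estimates lay above 0 with a median log2 fold change of 0.64. Of the 7, 3 had an unadjusted edgeR p below 0.05, against 7.35% of all tested genes with higher levels. PB-MP replicate 3 was the highest library for each of the 7. Marco, a Kupffer cell scavenger receptor, had 4.46, 4.61 and 30.3 CPM in PB-MP against 3.38, 3.51 and 1.55 CPM in control, with PB-MP replicate 3 far above the rest (DESeq2 adjusted p = 0.0352; edgeR adjusted p = 0.360). Of the 7 stellate cell estimates, 6 lay below 0. Col1a1, a collagen gene, had 2.45, 2.71 and 1.61 CPM in PB-MP against 5.53, 3.99 and 4.39 CPM in control, without overlap (log2 fold change -1.04 ± 0.28, DESeq2 adjusted p = 0.0449; edgeR adjusted p = 0.255), and Des, which encodes desmin, was also lower in every PB-MP library. The erythroid sum was 430 to 633 CPM in PB-MP and 265 to 509 CPM in control, nearly all globin and Alas2. The part of these cell types in the results was not tested.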

How the data were processed

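Liver libraries, 6 in all, were made from poly(A) RNA with a directional kit, per the labels' protocols. The deposited values are raw counts by gene symbol, and bcl2fastq and the build GRCm39 are named without roles in the submitters' processing notes. No source used here names the aligner, counting program, annotation or strand setting. The 6 single files were identical to the columns of the joint table. Of 56674 rows, 939 share a name with another row, and of these only the one with the highest total was used under that name.

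Genes passing filterByExpr of edgeR 4.0.16 (minimum count 10, minimum total count 15) were scaled by TMM and tested in R 4.3.3 with the quasi-likelihood F test and Benjamini-Hochberg adjustment over all 17871 genes at 0.05. The SE is the log2 fold change divided by the square root of F. Alternatives used DESeq2 1.42.0, limma 3.58.1, other scalings and filters, a replicate block and each library left out. Library-size group separation, the G2/M sum without Cks2 and the marker sum without Jchain were chosen after seeing the data. The test was also run on simulated data, but its outcome there is not given here. That run therefore does not show how often the test misses or falsely calls changes in the G2/M genes, which had few reads. Exon lengths and overlaps came from GENCODE M21 on GRCm38, and promoters from RefSeq on GRCm38.p6, matched by symbol, for 28 of 36 members.

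The members, the pathway and marker lists and the alternatives were chosen with earlier results of these data known. Named with full statistics were 6 anchor genes and members past an adjusted p of 0.05 in edgeR or DESeq2 or unadjusted p of 0.05. So were the 2 members of smallest p in each of 7 groups by role. For the 2 genes of smallest p in each pathway list, at least the log2 fold change and SE were given. No libraries of a group agreed within sampling noise (chi-square per degree of freedom at least 201).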

Additional observations from a re-analysis of the deposited data

How the results depend on the processing

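Over all genes, edgeR called 0 with all libraries and 0 to 1 with a library left out, and DESeq2 called 513 with all libraries. Of the members, edgeR called 0, also with each library left out, and DESeq2 called 1 with all libraries. DESeq2 was not refitted with a library left out. Members at an unadjusted p below 0.05 numbered 6 with all libraries (12.1% of all genes had such a p), 7 with library size only (3 of them higher in PB-MP; 15.8%), 15 with limma-voom and quality weights (23.4%), 1 with at least 1 CPM required in 3 libraries (11.2%), and 2 to 8 with a library left out (7.92% to 17.8%), lowest without PB-MP replicate 1. The G2/M median of -1.12 was -0.89 with library size only, -0.92 with limma-voom, -0.90 with quality weights, -0.90 with a replicate block, and -1.34 to -0.67 with a library left out. It was 0.063 at 1 CPM in 3 libraries, where 2 G2/M genes, Cks2 and Aurka, remained. The G1/S median ran from -0.34 to -0.23 with a library left out. Among the 19 members with full statistics, 5 alternative estimates of 276 changed sign. Ccnd1 was at -0.0050 with limma-voom and -0.014 with a replicate block, and ran from -0.50 to 0.42 with a library left out. Mki67 ran from -1.53 to 0.24. Under the replicate block 0 members passed and 5 had an unadjusted p below 0.05, where 10.3% of all genes had such a p. Same-numbered libraries correlated at -0.087, 0.094 and 0.082 in their deviations from group means. PB-MP replicate 1 correlated best with control replicate 2, and PB-MP replicates 2 and 3 with the control of the same number. The share of reads in the 18S ribosomal RNA row also kept its order by number. It was 3.61%, 9.42% and 0.707% in PB-MP replicates 1, 2 and 3, and 2.92%, 11.2% and 1.15% in control. Whether the numbers pair the libraries cannot be told from these values. Depth limits the G2/M genes most, since 10 of 16 stayed below 100 reads in every library.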
